A study of Macaca fascicularis with 3 samples.

Results

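Venular endothelial cells of extraocular muscle (EOM) were examined among whole cells of the cynomolgus macaque, Macaca fascicularis. A cell barcode counted as a member with at least 3 UMIs (unique molecular identifiers, which tag the RNA molecules captured) summed over ACKR1, SELE, SELP and PLVAP. That sum also had to exceed the sum over the capillary genes C1QTNF9, RAMP3, CD300LG, GPIHBP1, APLNR and TM4SF18. Members further held under 2 UMIs over the lymphatic genes PROX1 and MMRN1 and at most 20% mitochondrial UMIs. The rule found 393 members, 5.37% of the 7316 EOM cell barcodes kept at that mitochondrial limit (95% Clopper-Pearson interval 4.87% to 5.91%), out of 37973 barcodes in the whole series. Together they held 669000 UMIs, with a median of 1421 and a range of 502 to 7684 per barcode. The median mitochondrial share was 13.7%.

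Postcapillary venules are the vessel segment through which leukocytes leave the blood. Their endothelium stores P-selectin (SELP) with von Willebrand factor and, on stimulation by TNF or interleukin 1 through NF-kB, makes E-selectin (SELE), ICAM1 and VCAM1 and releases chemokines. ACKR1, the Duffy antigen receptor, carries chemokines across the venular wall, and PLVAP forms the diaphragms of caveolae and fenestrae. NR2F2, also known as COUP-TFII, is the transcription factor that sets venous identity. CXCL12 is by contrast made by arterial and capillary endothelium in many tissues.

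The series holds 3 libraries, 1 each of EOM whole cells, EOM nuclei and nuclei of the quadriceps femoris muscle (QFM), a muscle of the thigh. The labels name no treatment, age, sex or number of animals, and the names of the QFM files call that library single cells while its title says nuclei. The EOM cell library held 8979 barcodes and 12248405 UMIs and the nuclei libraries 16491 and 12503 barcodes. No barcode was shared between cells and nuclei, whose barcodes have 27 and 16 bases, and 51 were shared between both nuclei libraries. With 1 library per group no test was made and no difference has a replicate check. All intervals below are 95% intervals for counting error only, and UMIs of 1 barcode are not independent of each other.

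The genes of the rule describe how members were found and are no result. ACKR1 was seen in 336 of 393 members with 2102 UMIs, PLVAP in 220 with 861 UMIs, SELP in 153 with 270 UMIs and SELE in 54 with 131 UMIs. Barcodes just inside the limit, with a sum of 3, numbered 66, and 106 barcodes lay just outside with a sum of 2. Another 89 barcodes met every other criterion but exceeded the mitochondrial limit. Of the 4 genes, ACKR1 was thus the one carried by most members and SELE the one carried by fewest.

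The label was checked against marker lists of endothelial, mural, fibroblast, myeloid and T or NK cells. In 343 members the endothelial list (pan-endothelial genes such as PECAM1, CDH5 and CLDN5, leaving out VWF) was at least as high as the list of macrophage and monocyte genes, with medians of 13 and 0 UMIs. The other 50 members held more myeloid than endothelial UMIs, with medians of 27.5 and 3. FCGR3A, the Fc receptor of nonclassical monocytes, was present in 44 of these 50 and in 2 of the 343. In 43 of the 50, PLVAP was the only gene of the rule present. Among the 50, 28 held at least 3 endothelial UMIs, and 6 held ACKR1, with up to 16 UMIs in 1 barcode. The label therefore went against the data for most of these 50. They are called myeloid-led below, and the 343 are called endothelial-led. This division used the endothelial and myeloid lists only and was made after values had been seen. Among the 343, 48 held at least 3 UMIs of the mural list, 12 of the fibroblast list and 4 of the T or NK list. The largest sums of these lists in 1 barcode were 52, 65 and 9 UMIs.

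**Figure D1:**
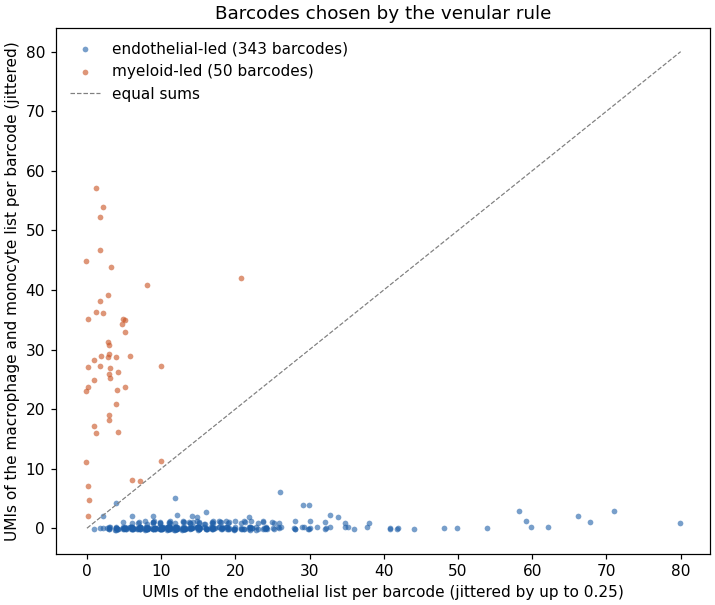
UMIs of the endothelial list (x axis) against UMIs of the macrophage and monocyte list (y axis) in each of the 393 members, with points jittered. The 50 myeloid-led barcodes lie above the line of equal sums and the 343 endothelial-led barcodes on or below it, and 15 members had sums within 3 UMIs of each other.

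PLVAP was not limited to endothelial barcodes in this library. Among all 266 myeloid-class barcodes with FCGR3A, 142 held PLVAP, at 503 CPM, which is the share of all UMIs of a class on the usual CPM scale, while SELE and SELP were seen in 0 of 266. Thinned to 500 UMIs per barcode, PLVAP was present in 20.7% of these (exact upper limit 26.0%), in 1.30% of 463 myeloid-class barcodes without FCGR3A and in 0.205% of 1952 mural barcodes. The median depths before thinning were 2059, 1656 and 1529.5 UMIs. PLVAP in FCGR3A-positive myeloid barcodes thus lay above its level in the other myeloid and mural barcodes beyond counting error. ACKR1 and SELP thinned the same way were in 84.5% and 21.0% of endothelial-led members, and in 1.08% and 0.256% of mural barcodes.

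Within the 343 endothelial-led members, ACKR1 was the most abundant of the 4 rule genes in 252 barcodes, PLVAP in 48, SELP in 11 and SELE in 6, with ties in 26. All 4 were found together in 9 barcodes. SELE, which is made only by activated endothelium in most tissues, had 130 UMIs in 53 of the 343.

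The limit on PROX1 and MMRN1 left out 122 barcodes that met the rest of the rule, with a median of 1991.5 UMIs, few of which held other lymphatic markers. Among the 122, ACKR1 was present in 120 and MMRN1, multimerin 1, in 114. PROX1, the other gene of that limit, was in 29, with up to 10 UMIs in 1 barcode. It stood at 171 CPM in the 122 and at 31.3 CPM in endothelial-led members, where the rule caps it at 1 UMI. The lymphatic chemokine CCL21 was in 4 of them, the hyaluronan receptor LYVE1 in 1, FLT4 in 4 and TFF3 in 0, where a count of 0 allows up to 3 UMIs. SELP stood at 357 CPM in these barcodes and at 486 CPM in endothelial-led members, VCAM1 at 641 and 811 CPM, and CPE at 2517 and 2067 CPM. CXCL12 was lower in the barcodes left out, at 77.9 against 374 CPM, a log2 ratio of -2.26 (-2.91 to -1.67). MMRN1 is capped by the rule in members, where 92 of 393 held 1 UMI, against 1 of 281 capillary-rule barcodes.

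Members were compared with 281 capillary-rule barcodes of the same library, chosen by at least 3 UMIs over the capillary genes and more of these than of the venular genes. These held 334133 UMIs, with a median of 929 and a median mitochondrial share of 10.9%. A gene was compared with at least 20 UMIs over both sums and called higher or lower at a ratio of 2-fold, leaving out the 10 venular and capillary genes of the rule. A ratio against 0 UMIs took 3 UMIs in their place and is given as a lower bound. Over all 393 members, 732 of 6555 genes were higher (11.2%) and 818 were lower (12.5%). Over the 343 endothelial-led members, 493 of 5980 genes were higher (8.24%) and 629 were lower (10.5%), while 81.2% were within 2-fold, with a median log2 ratio over all genes of -0.02. The 402 higher genes common to both were 54.9% of the 732 and 81.5% of the 493. Genes such as AIF1, CD68 and IL1B led the list over all members, with 2 to 4 UMIs each among the endothelial-led. Ratios below are those of the 343 endothelial-led members unless stated. Scaling by the median ratio of 4877 genes with at least 10 UMIs in each sum would raise every log2 ratio by 0.11, since that median was -0.11. It changes the split to 650 higher and 507 lower genes, or 56.2% higher in place of 43.9%.

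Most measured venous genes were higher in the members. Of 16 genes of the venous identity list, 10 were measured and 8 were higher, with 0 lower and a median log2 ratio of 2.46. CPE, carboxypeptidase E, a peptide hormone processing enzyme, reached 2067 CPM in venular and 44.9 CPM in capillary barcodes, a log2 ratio of 5.53 (4.80 to 6.37). It was seen in 258 of 343 members and in 9 of 281 capillary barcodes. NR2F2 stood at 437 and 74.8 CPM, a ratio of 2.55 (1.95 to 3.20), and CLU, the secreted chaperone clusterin, at 1999 and 386 CPM, a ratio of 2.37 (2.11 to 2.65). IL1R1, the signalling receptor for interleukin 1, had 148 UMIs in 103 members and 3 UMIs among capillary barcodes, a ratio of 4.92 (3.35 to 7.22). ADGRG6, NRP2 and MEOX1 were also higher, and POSTN was at least 5.75-fold higher, with 28 UMIs in 15 members and 0 in capillary barcodes. EPHB4, a venous receptor for ephrin B2, did not reach the threshold, at 103 and 83.8 CPM. Of 18 measured pan-endothelial genes 0 were higher and 2 lower, CDH5 and FLT1, with a median log2 ratio of -0.34. Of this list PECAM1 and VWF were alike in CPM in both classes, with log2 ratios of 0.02 (-0.17 to 0.20) and 0.09 (-0.10 to 0.29).

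Among leukocyte adhesion genes VCAM1, ICAM1 and THY1 were higher in the members, and more genes of the list were lower than higher. Of its 28 genes, 20 were measured, of which 3 were higher, 9 lower and 8 within 2-fold, with a median log2 ratio of -0.81. Shares over all genes were 8.24% higher and 10.5% lower. VCAM1, the ligand of the integrin VLA-4, had 440 UMIs in 168 members and 30 UMIs in 23 capillary barcodes, or 811 and 89.8 CPM, a log2 ratio of 3.17 (2.64 to 3.76). ICAM1, the ligand of LFA-1, stood at 870 and 245 CPM, a ratio of 1.83 (1.48 to 2.18). Thinned to equal depth, VCAM1 was in 26.8% of members, 3.20% of capillary and 0.256% of mural barcodes, and ICAM1 in 27.4%, 8.90% and 0.359%. Both therefore stayed higher in venular barcodes at equal depth. THY1 was higher with 46 UMIs in 32 members, and fibroblasts express it too.

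The adhesion genes that were lower included ICAM2, at 73.7 and 227 CPM with a ratio of -1.63 (-2.22 to -1.06), and CDH5, the cadherin of endothelial junctions, at 352 and 766 CPM with a ratio of -1.12 (-1.40 to -0.85). PODXL, a sialomucin of the luminal surface, fell between classes from 733 CPM in capillary to 201 CPM in venular barcodes. GCNT1, an enzyme that builds core 2 O-glycans, had 37 UMIs in 32 capillary barcodes and 1 UMI in the members, a ratio of -5.91 (-11.25 to -3.34). JAM2, ESAM and the integrin subunit ITGB1 were within 2-fold. Over all 393 members 5 adhesion genes were called higher: CD44 and SELPLG, which are leukocyte genes, were called only there, and CD44 was -1.70 over endothelial-led members.

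Chemokines and cytokines were mostly higher in the members, though several rested on few barcodes. Of 33 genes on the list 13 were measured, of which 8 were higher and 2 lower, with a median log2 ratio of 1.48. Over all members 8 were higher too, and 5 at equal depth or without barcodes of other classes and 3 with at most 10% mitochondrial UMIs. CCL20, which attracts CCR6-bearing lymphocytes, had 73 UMIs in 22 members, 13 of them in 1 barcode, and 2 UMIs in capillary barcodes, a ratio of 4.49 (2.58 to 7.56). CXCL10, an interferon-induced ligand of CXCR3, had 61 UMIs in only 9 of 343 members, and 23 of these UMIs came from 1 barcode. Without that barcode its ratio fell from 4.23 to 3.55. CCL2, the main attractant of monocytes, had 65 UMIs in 20 members and a ratio of 2.74 (1.54 to 4.24), and IL6 had 58 UMIs in 27 members and a ratio of 2.35 (1.22 to 3.73). CXCL8 had 50 UMIs in 19 members and a ratio of 1.48, which was 0.97 and under the threshold without the barcode that held 15 of them. IL33 and CSF1 were higher with 30 and 84 UMIs, though IL33 had a ratio of -0.24 over members with at least 5 UMIs of the rule genes. Of the 30 IL33 UMIs, 12 came from 6 of the 12 members with neither ACKR1 nor SELE, whose arterial genes are given below. These transcripts were thus found in a small share of the venular barcodes, as in 5.83% for CCL2 and 7.87% for IL6. Against all other kept barcodes, CCL2 was no higher in members, at 120 against 137 CPM, and CXCL8 was lower, at 92.1 against 532 CPM.

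CXCL12, the ligand of CXCR4, went the other way, with 203 UMIs in 89 of 343 members and 2126 UMIs in 258 of 281 capillary barcodes. Its level was 374 and 6363 CPM, a log2 ratio of -4.09 (-4.30 to -3.88). CX3CL1, a membrane-bound chemokine, was also lower, at 133 and 278 CPM. TNFSF10 was alike, at 1695 and 1646 CPM.

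Measured genes of the NF-kB and TNF response were higher or within 2-fold, and 0 were lower. Of 28 genes on the NF-kB and TNF response list 20 were measured and 10 were higher, with a median log2 ratio of 0.90. Over all members 12 were higher, and these became 5 without barcodes holding 3 UMIs of another class and 7 with at most 10% mitochondrial UMIs. NFKBIA, the inhibitor that NF-kB itself induces, had 1391 UMIs in 274 of 343 members and 234 UMIs in 111 of 281 capillary barcodes, or 2563 and 700 CPM, a ratio of 1.87 (1.67 to 2.08). At equal depth it was in 58.6% of members, 23.8% of capillary and 11.8% of mural barcodes. BCL3 stood at 118 and 26.9 CPM, a ratio of 2.13 (1.12 to 3.32). TNFAIP3, the A20 feedback enzyme, had a ratio of 1.17 (0.46 to 1.94), and NFKB2, IRF1 and RELB were between 1.04 and 1.76. NFKBIZ, PTGS2, C2CD4B and MAP3K8 complete the 10. RELA and NFKB1, the subunits themselves, were within 2-fold at 0.53 and 0.30. SOD2, with 66 UMIs in 39 members, was within 2-fold at 0.54, while over all 393 members it was 1.71, and it stood at 935 CPM in the myeloid-led members.

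Immediate-early and stress genes, which tissue dissociation can induce, were measured beside these. Of 33 genes on that list 26 were measured, of which 2 were higher, MYC and GADD45A, and 0 lower, with a median log2 ratio of 0.08. FOS stood at 4282 and 3277 CPM, a ratio of 0.39 (0.28 to 0.49), JUN at 2666 and 3220 CPM and HSPA8 at 252 and 332 CPM. The part of dissociation in the inflammatory genes was not tested. Of the receptors for inflammatory mediators, 14 of 30 were measured, and 2 were higher and 3 lower. Shares over all genes were 8.24% and 10.5%. IL1R1 and F2R, the thrombin receptor, were higher, F2R by at least 4.51-fold, and IFNAR1, IFNGR1 and OSMR were lower. TNFRSF1A, the main TNF receptor, had a ratio of 0.66 (-0.03 to 1.38).

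**Figure D2:**
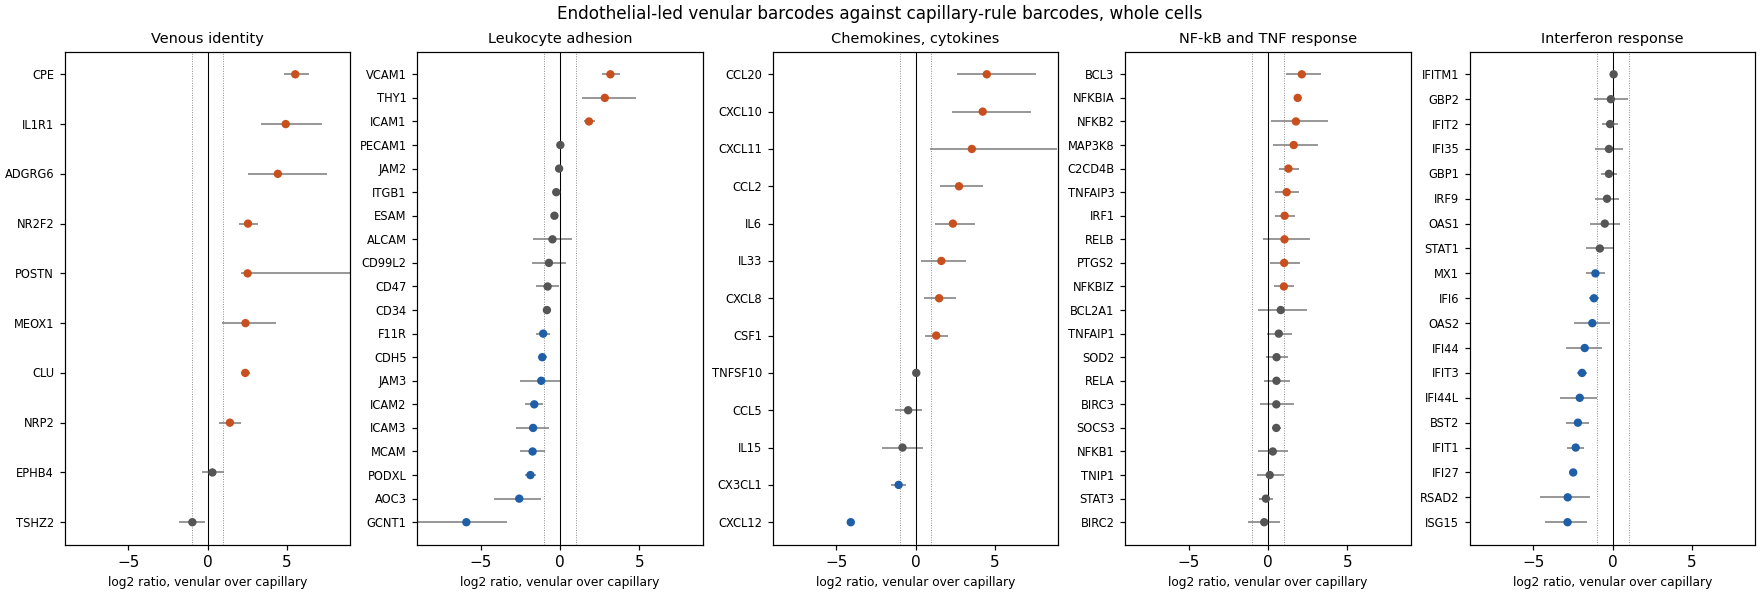
Log2 ratio of CPM in 343 endothelial-led venular barcodes to 281 capillary-rule barcodes (x axis) for each measured gene of 5 lists, with 95% counting intervals as bars cut at the edge of the panel. Dotted lines mark 2-fold, and orange and blue points are genes past it. Venous, chemokine and NF-kB genes lie mainly to the right, with 8, 8 and 10 genes higher, and 11 interferon genes lie to the left.

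On the list of interferon response genes more were lower than higher in the members. Of its 26 genes 19 were measured, of which 0 were higher and 11 lower, with a median log2 ratio of -1.18. Genes outside this list that interferon can also induce, CXCL10, CXCL11, IRF1 and UBD, were called higher. Over all members the list's 11 lower genes were 6 with at most 10% mitochondrial UMIs and 5 at equal depth. IFI27 had 703 UMIs in 169 of 343 members and 2435 UMIs in 258 of 281 capillary barcodes, or 1295 and 7288 CPM, a ratio of -2.49 (-2.61 to -2.37). IFIT3 stood at 201 and 766 CPM, a ratio of -1.93 (-2.27 to -1.60), IFIT1 at 71.9 and 362 CPM, and ISG15 at 12.9 and 92.8 CPM. IFITM1, which is also expressed in the resting state, was alike at 2511 and 2412 CPM. The NF-kB list, by contrast, held 10 higher and 0 lower genes over the same barcodes. Of 12 measured antigen presentation genes 11 were within 2-fold, among them CD74 and B2M at -0.75 and -0.29, and CTSS, a lysosomal protease that myeloid cells express strongly, was lower.

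Many genes that mark other vessel segments were lower. Of 12 measured arterial genes 0 were higher and 6 lower, among them SEMA3G (-3.04), GJA4 (-2.46) and EFNB2 (-1.51), and CXCL12 is on this list too. Of 12 measured further capillary genes 7 were lower and 1 was higher. RGCC fell between classes from 353 CPM in capillary to 22.1 CPM in venular barcodes, and CA4, carbonic anhydrase of the capillary surface, had 28 UMIs in capillary barcodes and 3 in members. FABP4 and FABP5, fatty acid carriers, were lower at -1.01 and -1.65. MEOX2 was the higher gene, at 240 and 95.8 CPM, and over all members with at most 10% mitochondrial UMIs its log2 ratio was -0.15.

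Among genes of coagulation, vessel tone and matrix, some were higher and some lower. Of 15 measured haemostasis genes 3 were higher and 2 lower. Beside these counts, 8.24% of all genes compared were higher and 10.5% lower, so the small list counts here were not read as traits of the lists. TFPI, the inhibitor of the tissue factor pathway, stood at 333 and 59.9 CPM, a ratio of 2.48 (1.81 to 3.22), and PROCR, the protein C receptor, had a ratio of 2.55. Of 11 genes of vessel tone 4 were higher and 2 lower. The lower genes were ADM, adrenomedullin, with 11 and 28 UMIs, and the endothelin receptor EDNRB, with 9 and 12. The higher ones included ACE with 47 and 6 UMIs and a ratio of 2.27, the CGRP receptor CALCRL at 317 and 126 CPM, and EDN1, endothelin 1, at 1045 and 521 CPM. EDN1 lay at the threshold, at 2.01-fold, and its log2 ratio was 0.96 without its top barcode. Of 24 measured basement membrane and matrix genes 4 were higher, MGP, TIMP1, FN1 and LOXL2, and 5 were lower, COL4A1, SPARC, LAMA5, LAMB2 and IGFBP5. COL4A1, a chain of the collagen of basement membranes, had a ratio of -1.91 (-2.85 to -1.03), and SPARC, a collagen-binding protein, stood at 407 and 874 CPM. MGP, matrix Gla protein, an inhibitor of BMP signalling and calcification, had 1662 UMIs in 238 members and 63 UMIs in 30 capillary barcodes, a ratio of 4.02 (3.66 to 4.41). MGP reached 4496 CPM in fibroblast barcodes, above its 3062 CPM in members. BMP4 and the BMP target ID3 were higher too, at 3.05 and 1.94. Among 14 measured barrier and transport genes 0 were higher and 3 were lower, among them the glucose transporter SLC2A1 at 118 and 781 CPM.

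Markers of other cell types moved with the class. The mural list stood at 997 CPM in endothelial-led members and 3065 CPM in capillary barcodes, the fibroblast list at 637 and 859 CPM and the macrophage and monocyte list at 205 and 422 CPM. The mural sums ranged from 0 to 52 UMIs per member, with 150 of 343 at 0, and from 0 to 120 per capillary barcode, with 108 of 281 at 0. Of 7 measured smooth muscle genes 5 were lower in the members, ACTA2 and MYH11 among them. The part of these cells in the ratios was not tested. The lists of B and plasma, mast and platelet genes were at 3.68, 1.84 and 1.84 CPM in the members. HBB was not read, since 1052 of its UMIs came from 1 member.

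Against all 6923 other kept barcodes of the library, 20 genes with at least 100 CPM had the highest ratios in the members. UBD, a ubiquitin-like modifier induced by TNF and interferon, was the highest with 140 against 10.9 CPM, a log2 ratio of 3.68, from 76 UMIs in 40 members. VCAM1 followed at 811 against 74.0 CPM. TNFRSF6B, a decoy receptor of the TNF family, stood at 240 against 25.6 CPM, SPNS2, the sphingosine 1-phosphate exporter that guides lymphocyte exit, at 129 against 14.4 CPM, and ICAM1 at 870 against 108 CPM. Endothelial genes that capillary barcodes share, such as NOSTRIN at 122 CPM in members and 98.8 CPM in capillary barcodes, were also among these. Of the 20 genes highest in this comparison, 14 were also called higher than in capillary barcodes, among them ICAM1, CCL20, IL1R1, TNFRSF6B with a log2 ratio of 2.24 and CADM3 with 4.74. The other 6, NOSTRIN among them, were within 2-fold.

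CXCL12 and RGCC, given above, were among the genes lowest in the members against capillary barcodes. APOA1, the main protein of high density lipoprotein, had 166 UMIs in capillary barcodes and 2 in the members, a log2 ratio of -7.07 (-10.13 to -5.20). ALPL, alkaline phosphatase, had 50 and 1 UMIs. BTNL9, a butyrophilin-like protein, had 34 and 4 UMIs, and FCN3, a lectin that starts complement, 139 and 25. MGLL, monoacylglycerol lipase, stood at 446 and 44.2 CPM in capillary and venular barcodes, and ITGA1, a collagen-binding integrin, at 646 and 92.1 CPM. Among the highest genes outside the lists, EFEMP1, an extracellular matrix protein, had 159 UMIs in members and 4 in capillary barcodes, NT5E, which makes adenosine from AMP, 67 and 3, and ALDH1A1, an enzyme of retinoic acid synthesis, 62 and 3. EFEMP1 stood at 827 CPM in fibroblast barcodes and at 293 CPM in members.

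The same rule found 228 venular and 155 capillary nuclei in EOM and 269 and 296 in QFM, and in none of the venular nuclei did myeloid exceed endothelial UMIs. The nuclei matrices carry no symbol for C1QTNF9 or GPIHBP1, and nuclei and cells were prepared differently, so only ratios within a library were set side by side. In EOM nuclei 433 of 10150 genes were higher in venular than capillary nuclei (4.27%) and 368 lower (3.63%). In QFM nuclei 767 of 11195 were higher (6.85%) and 670 lower (5.98%). Of 287 genes higher in cells and measured in EOM nuclei 58 were higher there too, 20.2% of them, against 3.48% of all 4136 genes measured in both, and 2 were lower. In QFM nuclei 85 of 326 were higher (26.1%), against 4.96% of 4415, and 8 were lower.

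Of 9 venous genes measured in nuclei 5 were higher in each muscle and 0 were lower. These were CPE, NR2F2, IL1R1, CLU and ADGRG6, while NRP2, higher in cells, was 0.96 in EOM nuclei and -0.05 (-0.24 to 0.15) in QFM nuclei. Of 20 adhesion genes 2 were higher and 1 lower in EOM nuclei, and 3 were higher and 4 lower in QFM nuclei. VCAM1 and ICAM1 were higher in both, and THY1 was -0.28 and -0.59. VCAM1 had 84 venular and 29 capillary UMIs in EOM nuclei, a log2 ratio of 1.44 (0.81 to 2.10), and 160 and 5 UMIs in QFM nuclei, a ratio of 4.87 (3.61 to 6.51). ICAM1 had ratios of 1.01 (0.40 to 1.64) and 2.09 (1.56 to 2.65), and IL1R1 of 3.33 (2.63 to 4.11) and 3.14 (2.71 to 3.60). MGP was also higher in both, and CXCL12 and IFI27 were lower in both, at -2.61 and -2.16 in EOM and -3.54 and -4.16 in QFM nuclei. IFI27 was the only lower gene of 15 interferon genes measured in EOM nuclei, with 0 higher and 14 within 2-fold. In QFM nuclei 7 of 20 interferon genes were lower and 1 was higher. ALDH1A1, among the highest genes in cells, went against its direction there, at -0.56 in EOM nuclei and -1.13 (-1.83 to -0.47) in QFM nuclei. SLCO2A1, a prostaglandin transporter with only 14 UMIs in members, had 378 UMIs in venular and 38 in capillary EOM nuclei, a ratio of 3.22 (2.74 to 3.74), and 4.41 in QFM nuclei.

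Fewer genes of the NF-kB and chemokine lists were called in nuclei. Fewer of all genes were called higher there too, 4.27% in EOM and 6.85% in QFM nuclei against 8.24% in cells. The list counts below are small and were not read apart from these shares. Of 13 measured NF-kB genes 1 was higher and 0 lower in EOM nuclei, and 2 of 14 were higher and 0 lower in QFM nuclei, with MAP3K8 higher in QFM nuclei at 1.12 (0.60 to 1.65). Of 6 chemokine and cytokine genes measured in each, 0 were higher, and 1 and 2 were lower. SELE had 1 UMI in venular EOM nuclei and 5 in all kept EOM nuclei, and 0 in all kept QFM nuclei. NFKBIA had 48 and 46 UMIs in EOM nuclei, a ratio of -0.03 (-0.65 to 0.58), and -0.23 (-0.52 to 0.07) in QFM nuclei, where these intervals lie below its ratio in cells. CCL2 had 1 UMI in each class of EOM nuclei and 3 and 5 UMIs in QFM nuclei, too few to read. IL6 was measured with 58 and 52 UMIs in EOM nuclei, a ratio of 0.06 (-0.50 to 0.63). ID3, higher in venular cells, had -0.39 and -1.85 in EOM and QFM nuclei. Whether such differences come from the preparation of cells, from cytoplasmic against nuclear RNA or from the animals cannot be told apart, since each kind of preparation is 1 library.

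**Figure D3:**
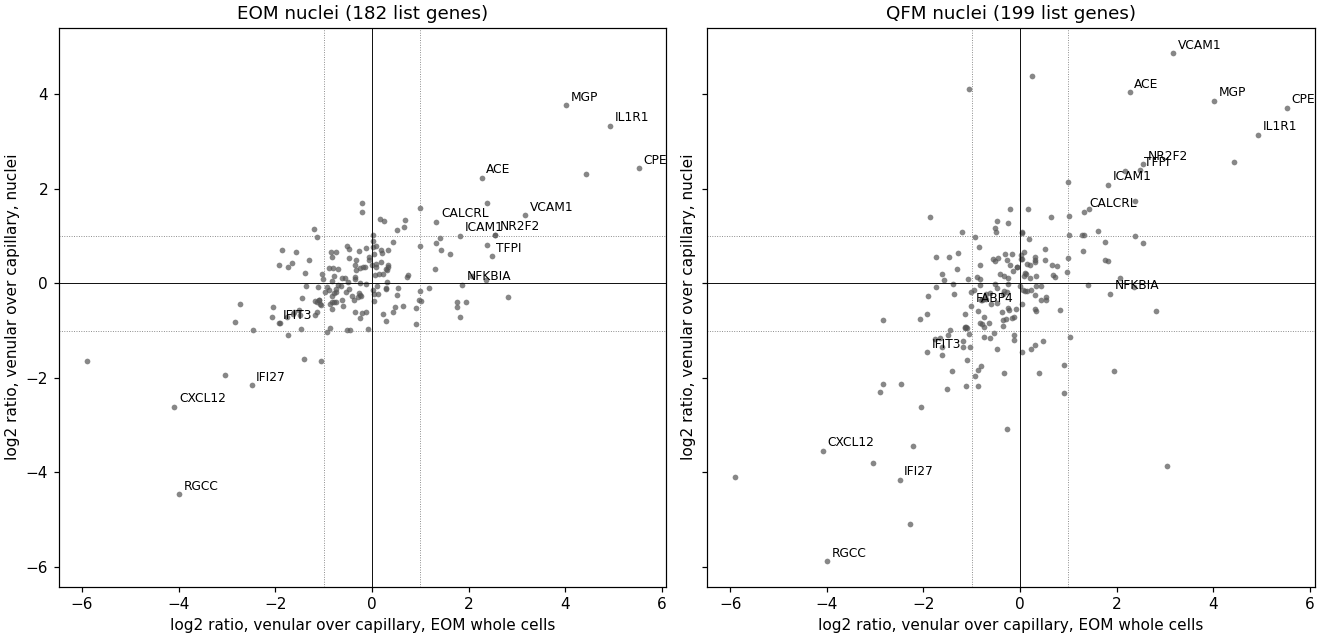
Log2 ratio of venular to capillary CPM in EOM whole cells (x axis, endothelial-led members) against the same ratio in EOM nuclei (left) and QFM nuclei (right), for genes of the lists with at least 20 UMIs over both sums in each. CPE, IL1R1, MGP, VCAM1 and ACE lie in the upper right and CXCL12, IFI27 and RGCC in the lower left of both panels, while NFKBIA lies near 0 in nuclei.

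The endothelial-led members were last compared among themselves by SELE, a gene of the rule, so the split is a description. SELE was seen in 53 barcodes with a median of 1857 UMIs, and 278 barcodes held ACKR1 and no SELE, with a median of 1249.5 UMIs. The remaining 12 held neither, and part of their markers went against the venular name. Of the arterial list, GJA5 had 14 UMIs in 7 of them, with 0 UMIs with SELE and 1 in the 278. FBLN5 and LTBP4 stood at 640 and 982 CPM in the 12, and at 7.38 and 140 CPM in the 278. NR2F2 had 1 UMI in the 12. GJA4, NOTCH4 and ELN of the arterial list had 0 UMIs there, and the venous genes CPE and CLU stood at 1536 and 3585 CPM. With SELE, 196 of 4046 genes were at least 2-fold higher (4.84%) and 408 were lower (10.1%). NR2F2 stood at 434 and 460 CPM, a log2 ratio of -0.08 (-0.57 to 0.38), and IL1R1 at 328 and 266 CPM, a ratio of 0.30 (-0.28 to 0.86).

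Of 14 measured adhesion genes ICAM1 and ICAM2 were higher with SELE and MCAM was lower. Of 10 chemokine and cytokine genes CCL20, CXCL8 and CXCL10 were higher and CCL5 was lower. MCAM had 2 and 18 UMIs (-4.47 to 0.74) and CCL5 had 2 and 25 UMIs (-4.92 to 0.21), so both intervals included 0. Over all genes 4.84% were higher and 10.1% lower in this split. ICAM1 stood at 1578 and 716 CPM, a log2 ratio of 1.14 (0.86 to 1.41), and was in 45.3% and 24.8% of barcodes thinned to equal depth. VCAM1 was within 2-fold, at 0.56 (0.24 to 0.86). CCL20 was in 11 of 53 barcodes and in 11 of 278, at 284 and 101 CPM, a ratio of 1.49 (0.78 to 2.19), and CXCL8 in 10 and in 9. MAP3K8, a kinase of the NF-kB and ERK pathways, was likewise in 11 and 11 barcodes, a ratio of 2.43 (1.30 to 3.62). CXCL10 had 45 and 16 UMIs, but in 5 and 4 barcodes only, and CXCL11 was in 4 and 2. CCL2 and TNFAIP3 did not differ beyond counting error, with ratios of 0.11 (-0.83 to 0.97) and 0.02 (-0.88 to 0.84).

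Of 19 measured NF-kB genes 4 were higher with SELE, MAP3K8, NFKBIZ, IRF1 and SOD2, and 0 were lower, with a median log2 ratio of 0.53 against -0.04 over all genes. At equal depth NFKBIZ was in 3.77% of barcodes with SELE and 7.19% of those without, against the direction of its CPM, so no order was read from it. SOD2 had 25 UMIs with SELE, 14 of them in 1 barcode, and IRF1 had 35, with 10 in its top barcode. Whether these calls hold without the top barcode was not tested, so SOD2 and IRF1 were not read as higher across the barcodes with SELE. MAP3K8 had 18 UMIs with SELE and at most 3 in 1 barcode. Of 25 immediate-early and stress genes 3 were higher, FOSB, EGR1 and ATF3, 1 was lower and 21 were within 2-fold, and the median was 0.48. FOS, within 2-fold, stood at 6347 and 3806 CPM. The part of dissociation in the SELE split was not tested. MGP, VWF and FN1 were lower with SELE. MGP stood at 1356 and 3230 CPM, a ratio of -1.25 (-1.50 to -1.01), and VWF at 620 and 1269 CPM, a ratio of -1.03 (-1.41 to -0.67). FN1 had 3 UMIs in 2 barcodes and 56 in 36, a ratio of -2.37 (-4.69 to -0.75).

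**Figure D4:**
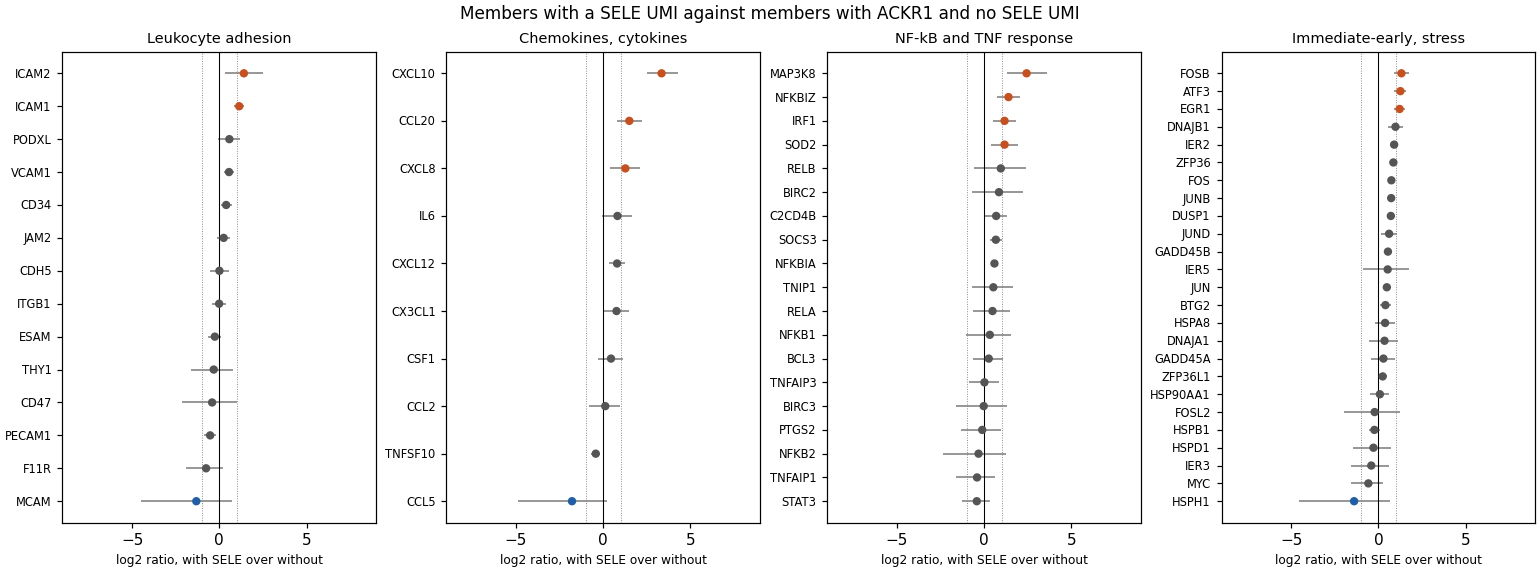
Log2 ratio of CPM in the 53 endothelial-led members with a SELE UMI to the 278 with ACKR1 and no SELE UMI (x axis), for measured genes of 4 lists, with 95% counting intervals. ICAM1, CCL20, MAP3K8, FOSB, ATF3 and EGR1 lie beyond 2-fold to the right, and most other genes lie between the dotted lines.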

How the data were processed

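The authors deposited raw UMI counts per gene and barcode. Cell Ranger 7.2.0 and Seurat 5.2.1 are listed, per the submitters' processing notes. The build of the genome: not given in the sources used here. Every deposited barcode held at least 500 UMIs, and whole cells were kept at up to 20% and nuclei at up to 10% mitochondrial UMIs. Among features of the cell matrix, 723 were named through their gene identifier from RefSeq. Counts were summed per class, scaled to CPM by the class total, and compared as log2 ratios with conditional exact binomial intervals, checked on simulated counts. Shares have Clopper-Pearson intervals. A class other than the rules needed 5 UMIs of its list and more than of the other lists together. Scrublet (scanpy, expected rate 6%) called 194 barcodes, 2.65%, of which 14 were members, and these were left in except in an alternative. Named genes were the 15 highest and 15 lowest against capillary barcodes and the 20 highest against all other barcodes, with at least 100 CPM in the higher class, plus list members. There were 35 lists. Members and lists were chosen with earlier results of these data known, and the division into endothelial-led and myeloid-led members after seeing the values. Python 3.11.15, numpy 2.4.6, scipy 1.17.1, pandas 2.3.3, matplotlib 3.10.9 and scanpy 1.11.5 were used. Replicates were not available, so no test was run. Promoter sequences were not analysed here.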

Additional observations from a re-analysis of the deposited data

Results flagged for a closer look

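PTPRC, the pan-leukocyte phosphatase CD45, went in opposite directions in both muscles. In EOM nuclei its log2 ratio of venular to capillary nuclei was -1.65 (-2.57 to -0.81), from 16 and 47 UMIs, and in QFM nuclei it was 4.11 (1.46 to 9.49), from 19 and 1 UMIs. This difference was not tested.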

How the results depend on the processing

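No paired analysis was possible because each group is 1 library. The ratios of 158 genes were recomputed over all 393 members under 14 alternatives, 2 of them chosen after seeing the data (endothelial-led members alone, and no lymphatic limit). Of 2209 values 1924 stayed within the counting interval of the reported ratio, 263 lay outside it with the same sign or from a ratio under 2-fold and 22 changed sign. With at most 10% mitochondrial UMIs 72 members remained, 238 genes were higher and 253 lower, and the lists gave 5 higher venous, 2 adhesion, 3 chemokine and 7 NF-kB genes and 6 lower interferon genes, in place of 8, 5, 8, 12 and 11. Leaving out barcodes with 3 UMIs of another class left 231 members, 373 higher and 449 lower genes, and 3 adhesion, 5 chemokine and 5 NF-kB genes. Thinning to 500 UMIs gave 350 higher and 378 lower genes, with 5 venous, 2 adhesion, 5 chemokine and 5 interferon genes. A minimum of 50 UMIs gave 306 and 327, with 3 adhesion, 5 chemokine and 6 interferon genes, and a minimum of 1 UMI gave 1479 and 5068. A threshold of 5 UMIs gave 491 lower genes, with 3 adhesion, 5 chemokine and 7 interferon genes. Without PLVAP in the rule 468 genes were higher, and 3 adhesion genes, as over endothelial-led members alone. Fewer barcodes or genes entered most of these, and the cause was otherwise not tested. The log2 ratios that changed sign were, without PLVAP, CD44 -2.62, CD68 -0.62, FCGR3A -0.62 and LPL -3.62. Over endothelial-led members they were CCL3 -0.21, CD44 -1.70 and LPL -1.92. Without barcodes of other classes they were AIF1 -2.36, LPL -3.10, LST1 -0.36, MS4A7 -1.36, SELPLG -2.36 and TNFAIP2 -0.36. At a threshold of 5 UMIs they were CD44 -0.56, IL33 -0.24 and SELPLG -0.56, thinned SELPLG -0.48, and with at most 10% mitochondrial UMIs CD44 -0.77, CXCL16 -0.36, MEOX2 -0.15, OAS2 0.01 and TNFAIP2 -0.36. Rescaling all members by their median ratio gave 934 higher and 546 lower genes, or 63.1% higher in place of 47.2%. Several chemokines rest on under 100 UMIs.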
